A study of Homo sapiens with 9 samples.

Results

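Huh7, a human hepatocellular carcinoma line, was transfected with a pool of siRNAs against LATS1 (siLATS1), a pool against LATS2 (siLATS2) or a control siRNA (siControl), and total RNA was sequenced 48 h later. The comparison described here sets the siLATS1 samples directly against the siLATS2 samples, that is 6 of the 9 samples of the series, chosen by the siRNA in their labels. It asks which genes separate loss of one paralog from loss of the other, with the effect of transfecting a targeting pool present on both sides. Each group held 3 samples of the same line, and the siControl values are given beside the results as a description and entered only 1 alternative fit. The labels name no drug, whereas the study's methods speak of sequencing cells that were both transfected and given sorafenib, a multikinase inhibitor, so whether these cells had the drug is not known here. A transient pool lowers a transcript and does not delete the gene, and each gene was targeted by 1 pool only, so effects of the target and of the siRNA sequences cannot be told apart.

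LATS1 and LATS2 are the closely related serine/threonine kinases at the end of the Hippo cascade. Activated by the MST kinases with their adaptors SAV1 and MOB1, they phosphorylate the co-activators YAP and TAZ, which are then kept in the cytoplasm or degraded. When LATS activity is low, YAP and TAZ enter the nucleus, bind the TEAD factors and raise targets such as CCN1, CCN2 and ANKRD1. In the liver the pathway restrains organ size and is known for its part in hepatocyte identity and in liver cancer.

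The 4 siRNAs of the siLATS1 pool are shown because they define one side of the comparison. They are written 5′ to 3′ as the strand that matches the mRNA, with positions 12 to 18 in capitals, the bases that pair with the seed (bases 2 to 8) of the guide strand.
siLATS1 siRNA 1: ggugaagucugUCUAGCAa
siLATS1 siRNA 2: uagcauggauuUCAGUAAu
siLATS1 siRNA 3: gguaguucgucUAUAUUAu
siLATS1 siRNA 4: gaaugguacugGACAAACu
All 4 matched the coding sequence of the principal LATS1 transcript on the minus strand of GRCh37, and none matched the principal transcript of another gene over its 19 bases. siRNA 4 lay in exon 4 of 8 (chr6:150005163-150005181), siRNAs 1 and 3 in exon 5 (chr6:150001437-150001455 and chr6:150001294-150001312), and siRNA 2 in exon 6 (chr6:149997836-149997854).

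Between 23548247 and 32193525 reads per sample were assigned to genes in the 6 samples. Hepatocyte and hepatoma markers were present throughout, with all 9 of the list tested and ALB between 3332 and 5791 CPM in the 6 samples. Of the immune markers, CD3E stayed at or below 0.0350 CPM and CD163 was at 0 in all 6, while LYZ (14.3 to 17.3 CPM) and CD14 (3.64 to 9.65 CPM) were detected. LUM (114 to 223 CPM) and PDGFRA (112 to 201 CPM) of the fibroblast list were also detected. The summed level of that list was 260 to 313 CPM in siLATS1 and 308 to 435 CPM in siLATS2, none of its 5 tested members was called, and its part in the results was not tested. None of the 3 immune and 1 endothelial markers tested was called, and 1 of the 9 hepatocyte markers was, SERPINA1. In these bulk samples fewer cells of a type and less RNA per cell cannot be told apart. Within the groups the replicates were spread along a single axis that took 83.7% of the within-group variation. siLATS1 replicate 1 and siLATS2 replicate 2 lay at one end of it (-29.5 and -29.7) and siLATS1 replicate 3 and siLATS2 replicate 3 at the other (36.7 and 22.2). The part of this axis in the results was not tested, and values without each library are given where a count rests on one.

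LATS1 itself was lower after siLATS1 than after siLATS2 (GRCh37 chr6:149979289-150039241). The siLATS1 samples held 27.8, 20.3 and 16 CPM, the siLATS2 samples 54.8, 78.3 and 52.2 CPM, and the siControl samples 112, 56.1 and 64.5 CPM. All siLATS1 values were below all others. The mean was 21.3 ± 5.95 CPM against 61.8 ± 14.4 CPM (SD, n = 3 each), 2.89-fold lower. The log2 fold change was -1.50 ± 0.24 (SE), with an adjusted p of 0.194 in limma. An exact two-sided permutation test gave p = 0.1, the smallest that 3 against 3 samples allow. The level of LATS2 was not analysed here, so the depletion on the siLATS2 side was not checked.

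More genes were higher after siLATS1 than were lower. In limma on log2(CPM + 1), 12783 genes were tested, and 295 of them (2.31%) passed the threshold of the study's methods, an unadjusted p under 0.05 with an absolute log2 fold change of at least 0.58; these are the genes named as called below. Of these, 217 were higher in siLATS1 (1.7% of genes tested) and 78 lower (0.61%). The largest differences were on the higher side, with 46 genes at an absolute log2 fold change of at least 1 against 4 on the lower side. Of the higher genes 41 had a siLATS2 mean under 1 CPM, and of the lower genes 2 had a siLATS1 mean under 1 CPM. Such genes were tested largely through the group in which they were high. The median log2 fold change of all genes was -0.02. In 274 of the 295 genes the values of the groups did not overlap (203 higher and 71 lower), as they did not in 12.5% of all genes tested (6.63% higher and 5.85% lower). No gene passed after Benjamini-Hochberg adjustment in limma (lowest adjusted p 0.0833), with 787 genes (6.16%) at an unadjusted p under 0.05, where 5% of the genes tested is 639. edgeR's quasi-likelihood test on reads recovered from the CPM values called 407 genes (3.18%) and also 0 after adjustment, with 793 (6.2%) at an unadjusted p under 0.05. DESeq2 on the same reads called 413 genes (3.23%) and 150 after adjustment (1.17%), with 885 (6.92%) at an unadjusted p under 0.05. The direction of the excess rested on siLATS1 replicate 3: without it 179 genes were higher and 178 lower, and 208 of them were among the 295. Other single samples left out gave 171 to 259 higher and 64 to 99 lower.

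**Figure D1:**
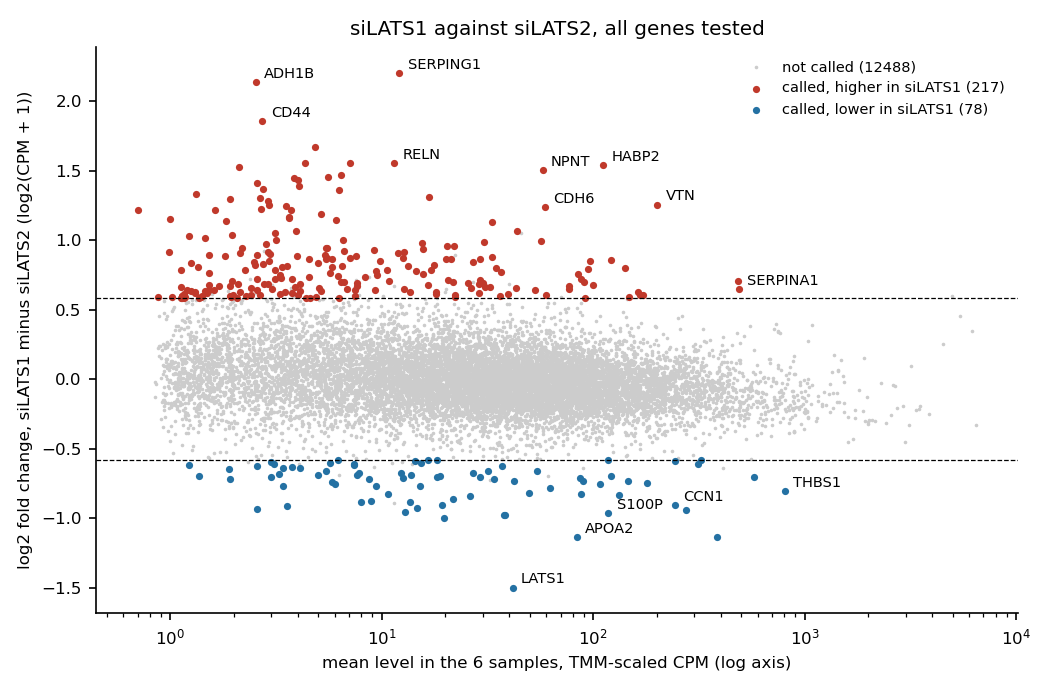
Each point is 1 of the 12783 genes tested, with its mean level in the 6 samples on the horizontal axis (TMM-scaled CPM, log axis) and its log2 fold change, siLATS1 minus siLATS2, on the vertical axis; red and blue points are the 217 and 78 called genes and dashed lines mark 0.58 in each direction. The called higher genes lie mostly at low levels (median 4.90 CPM, against 15.9 CPM for the lower genes and 30.8 CPM for all genes), while LATS1 is the gene furthest below 0.

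The siControl level was nearer to the siLATS2 mean in most called genes. This held for 208 of the 217 higher genes and 62 of the 78 lower genes, against 68.8% of all genes tested, taking the median of the siControl samples. siControl replicate 1 stood apart from the other siControl samples, with a correlation across genes of 0.855 and 0.862 with them against 0.995 between them (log2(CPM + 1), genes are not independent replicates). With it left out the counts were 214 and 61.

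Several complement genes were higher after siLATS1. Complement is a cascade of plasma proteins, made largely by hepatocytes, that tags microbes and cell surfaces and ends in a membrane-piercing complex. Of 25 members tested, 12 were called higher in siLATS1 and 0 lower (48% called, against 2.31% of all genes), and the list's median log2 fold change was 0.38 against -0.02. In all 12 the siLATS1 and siLATS2 values did not overlap, as in 274 of the 295 called genes. Without siLATS1 replicate 3 the count was 7 of 23, and leaving out any other library gave 9 to 11, with 0 lower each time. With at least 10 reads required in every sample, 11 of 25 were called higher. The median was 0.20 without siLATS1 replicate 2 and 0.36 to 0.51 without any other single sample.

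SERPING1 encodes the C1 inhibitor, which blocks the first proteases of the classical and lectin routes, and had the largest log2 fold change of all called genes on the log2(CPM + 1) scale. Its level was 19.7, 15 and 26.7 CPM in siLATS1, 4.36, 2.11 and 4.64 CPM in siLATS2, and 1.97, 2.53 and 2.38 CPM in siControl. The lowest siLATS1 value was above the highest value of both other groups. The means differed 5.53-fold, and the log2 fold change was 2.20 ± 0.30 (SE; limma, adjusted p = 0.0943). In edgeR the log2 fold change of SERPING1 was 2.47, below those of the low genes ADH1A (5.67), CD44 (4.40) and ADH1B (4.18). Of 11 regulators tested, 5 were called higher, where 1.7% of all genes tested were. VTN, encoding vitronectin, which holds back the terminal complex, was at 181, 221 and 464 CPM in siLATS1 and 106, 85.6 and 149 CPM in siLATS2. Its siLATS1 replicate 3 stood well above the others, and the log2 fold change of 1.25 (SE 0.36) became 0.85 without that sample, while the call was lost in the fit of all 9 samples. CFI, the protease that cleaves C3b and C4b, was also called (log2 fold change 0.85, SE 0.22). The membrane-bound regulators CD46, CD55 and CD59 were not called and had log2 fold changes of -0.07, -0.15 and 0.07.

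The components of the terminal complex were called in 4 of 5 cases, where 2.31% of all genes were called. C6 rose to 5.94, 2.38 and 5.44 CPM from 1.43, 1.27 and 1.02 CPM in siLATS2, with siLATS1 replicate 2 the lowest of its group but still above every siLATS2 value. C7 (log2 fold change 0.89), C8B (0.60) and C8A (0.58) were called, while C5 (0.14) was not. C7 was below 1 CPM in all siLATS2 samples (0.654, 0.835 and 0.731 CPM), so it entered the count only through its siLATS1 values. Of the 9 components that start the cascade or build its convertases, 3 were called: C1R (0.63), MBL2 (0.59), which encodes the mannose-binding lectin, and CFB (0.59). C3, the central component, was at 476, 768 and 627 CPM in siLATS1 and 547, 642 and 527 CPM in siLATS2, so that the groups overlapped (log2 fold change 0.10).

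**Figure D2:**
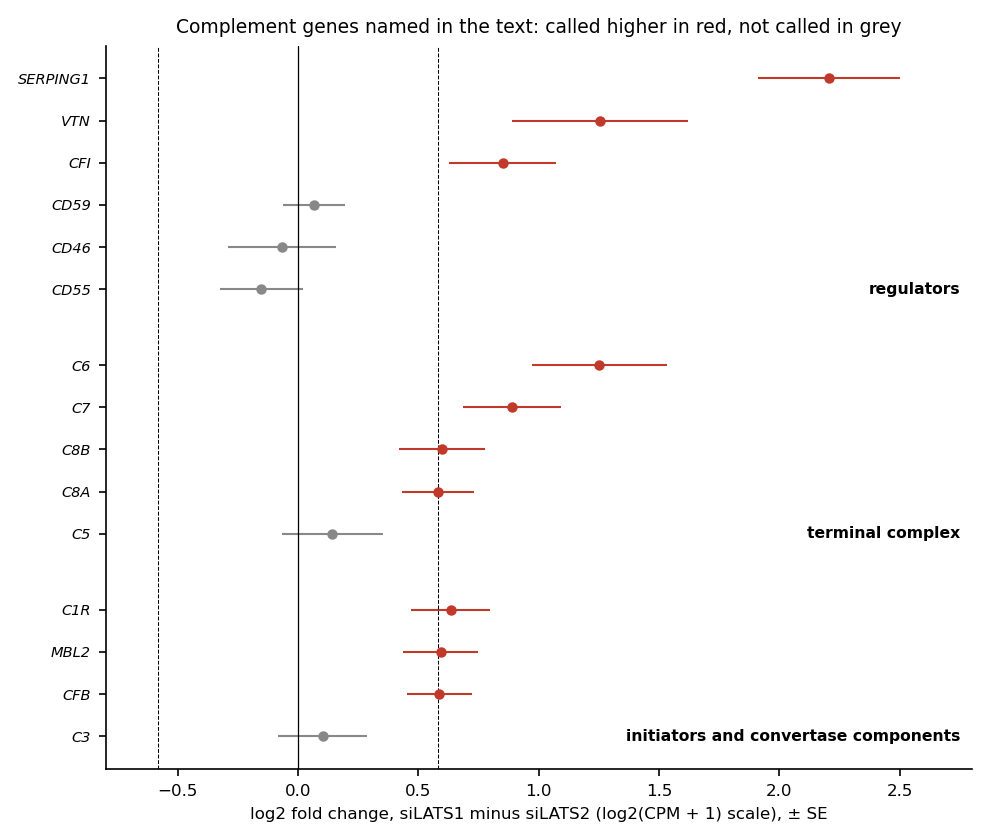
The log2 fold change, siLATS1 minus siLATS2 (horizontal axis, log2(CPM + 1) scale), is shown with its standard error for the 15 complement genes named in the text, grouped by place in the cascade; red marks the 10 of them that were called, grey those not called, and dashed lines mark 0.58 in each direction. SERPING1 lies apart at 2.20, and C5, C3 and the membrane-bound regulators sit near 0.

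Alcohol dehydrogenases led the drug- and steroid-metabolising enzymes. Of 21 cytochrome P450, UGT and alcohol dehydrogenase genes tested, 7 were called higher and 1 lower (38.1%, against 2.31% of all genes), with a list median of 0.13. The median lay between -0.0026 without siLATS1 replicate 1 and 0.38 without siLATS2 replicate 1, and was 0.04 without siLATS1 replicate 3. Leaving out siLATS1 replicate 1 left 16 members tested, 3 of them called, and leaving out siLATS1 replicate 3 left 17 with 4 higher and 1 lower. ADH1A, ADH1B and ADH1C were below 1 CPM in all siLATS2 samples, so they entered the count only through their siLATS1 values. With at least 10 reads required in every sample, 19 members were tested, with 4 higher and 1 lower. ADH1B, a class I enzyme of ethanol oxidation, was at 6.85, 2.6 and 4.98 CPM in siLATS1 and 0.343, 0.254 and 0.183 CPM in siLATS2, with 0.268, 0.0817 and 0 CPM in siControl (log2 fold change 2.14, SE 0.27; limma, adjusted p = 0.0943). Every siLATS1 value was above every other value, and the gene was close to undetected outside siLATS1. ADH1A behaved likewise at a lower level, with 1.68, 1.05 and 1.44 CPM against 0.0312, 0.0363 and 0 CPM, so that its siLATS2 values were single reads or none. ADH1C (log2 fold change 1.15) and ADH6 followed. ADH6 had 8.81, 7.5 and 9.6 CPM in siLATS1 and 2.71, 2.65 and 2.16 CPM in siLATS2 (1.46, SE 0.15; limma, adjusted p = 0.0833), one of the 4 lowest p-values of the comparison. ADH6 (GRCh37 chr4:100123795-100140694) and ADH1B (chr4:100226128-100242558) lie in 1 stretch of chromosome 4 with ADH1A between them. ADH1A, ADH1B and ADH1C are nearly identical in sequence, and how uniquely mapped reads were divided among them is uncertain. CYP3A7, the CYP3A enzyme of fetal liver, was called at 1.25 (SE 0.27); it shares exons with its readthrough CYP3A7-CYP3A51P, called at 1.28, and both rows can count the same reads. The glucuronosyltransferases UGT2B4 (0.85) and UGT2A3 (0.73) were called higher, and CYP2B6 (-0.68) lower.

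Several further products of the hepatocyte were higher after siLATS1, and some were lower. HABP2, a plasma serine protease that binds hyaluronan, was at 148, 146 and 208 CPM in siLATS1, 58, 52.7 and 57.8 CPM in siLATS2, and 32.1, 48.9 and 39.6 CPM in siControl. The groups were far apart, 2.98-fold in the mean, with a log2 fold change of 1.54 ± 0.16 (SE; limma, adjusted p = 0.0833). AFM, encoding the vitamin E-binding protein afamin, was at 5.73, 5.27 and 5.81 CPM against 1.40, 2.11 and 2.05 CPM (1.22, SE 0.15). Of 23 plasma proteins tested, 5 were called higher and 1 lower (26.1%, against 2.31% of all genes). The higher genes were ITIH1 (1.30) and ITIH2 (0.61), heavy chains of the inter-alpha-trypsin inhibitors, GC (0.70), the vitamin D carrier, SERPINA1 (0.65), alpha-1-antitrypsin, and AGT (0.61), angiotensinogen. The lower gene was SAA4 (-0.98), a constitutive serum amyloid A, whose row shares exons with SAA2-SAA4 (-0.98). SERPINA1 lost its call without siLATS1 replicate 3, and GC without siLATS2 replicate 3. ALB (0.25) and AFP (0.35) were not called. Groups did not overlap in 5 members higher and 4 lower in siLATS1, where the shares over all genes tested were 6.63% and 5.85%. The 4 lower were SAA4 and the uncalled AHSG (-0.58), ORM2 (-0.45) and RBP4 (-0.32). CPB2, a carboxypeptidase that slows fibrinolysis, was the single coagulation gene called higher (1.06, SE 0.20) of 24 tested, and 1 was called lower (8.3% called, against 2.31% of all genes). Several enzymes and carriers of the liver outside the lists were called too and are named here after their values were seen. Called higher were AKR1D1 (1.22) and BAAT (1.0) of bile acid synthesis, PON1 (0.93), FMO1 (0.75), SULT2A1 (0.66) and TMPRSS6 (0.75). BCO2 (-0.84), OAT and SLC51B were among those called lower, and APOA2 (-1.14), also lower, is described below. Of 23 liver-enriched transcription factors tested, 2 were called (8.7%, against 2.31% of all genes). These were ONECUT1 (0.70) and CEBPD (0.69), which lost their calls in 2 and 3 of 17 settings, while HNF4A (-0.03) was not called.

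**Figure D3:**
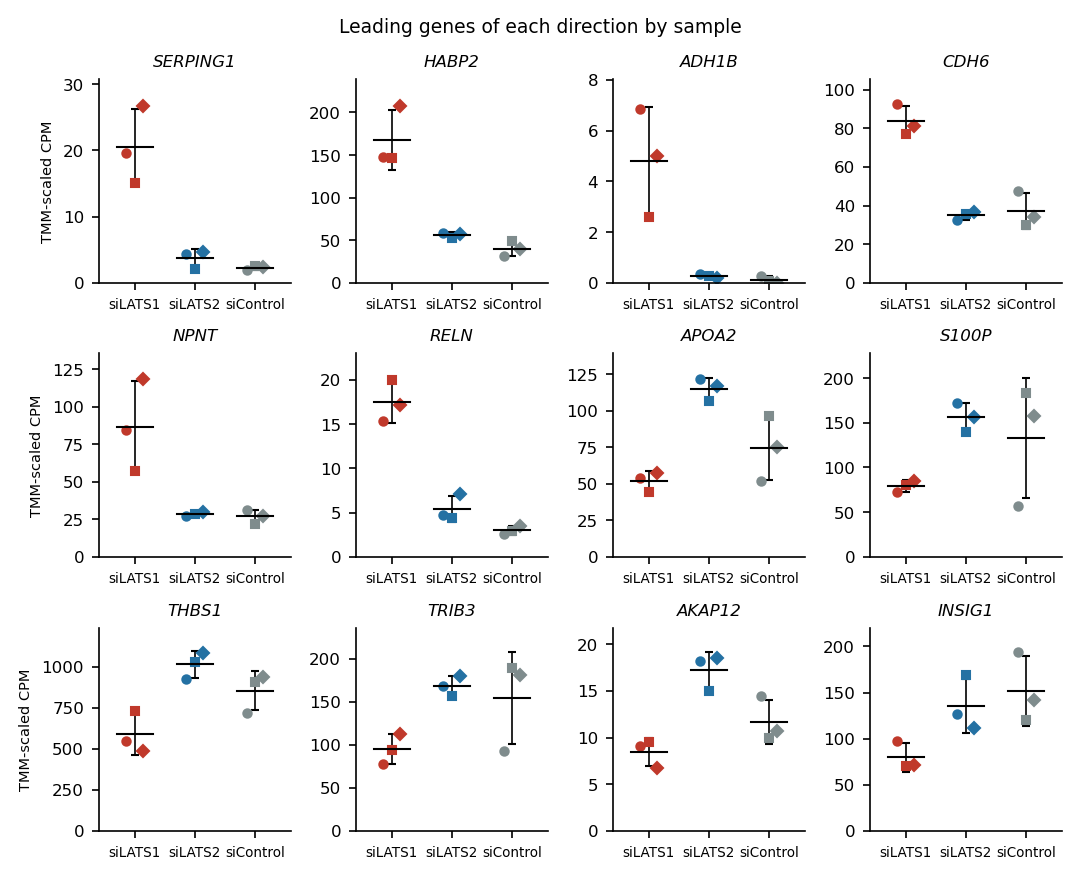
Each panel shows 1 gene, with the level in every sample on the vertical axis (TMM-scaled CPM, starting at 0); circles, squares and diamonds are replicates 1, 2 and 3, and the bar and whiskers are the mean and SD of 3 samples. In SERPING1, HABP2, ADH1B, CDH6, NPNT and RELN the siLATS1 samples stand above both other groups, whereas in APOA2, S100P, THBS1, TRIB3, AKAP12 and INSIG1 they lie below all siLATS2 samples.

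CDH6, encoding a cadherin of kidney and other epithelia, had the lowest p of all genes, with 92.4, 77.1 and 81.4 CPM in siLATS1, 32.4, 35.6 and 36.5 CPM in siLATS2, and 47.5, 29.7 and 33.9 CPM in siControl (log2 fold change 1.24, SE 0.13; limma, adjusted p = 0.0833). All siLATS1 values were above all others, and the siControl range held the siLATS2 range. NPNT, encoding nephronectin, an integrin ligand of basement membranes, was at 84.5, 57.0 and 118 CPM against 26.9, 28.9 and 30.0 CPM (1.51, SE 0.25). RELN, encoding the secreted glycoprotein reelin, was at 15.3, 20.01 and 17.1 CPM against 4.70, 4.36 and 7.09 CPM (1.55, SE 0.20). The siLATS2 values of both were all below the lowest siLATS1 value. Further matrix genes that were called higher, grouped here after their values were seen, were TNC (1.45), SPARC (0.87, with overlapping groups and a call lost in 4 of 17 other settings), COL19A1 (1.02) and COL12A1 (0.99). TM4SF4 (1.47), LYPD1 (1.56) and CACNG4 (1.56) encode membrane proteins.

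Of 13 integrin subunits tested, 2 were called, both higher (15.4%, against 2.31% of all genes). They were ITGB6 (1.04, SE 0.16) and ITGB8 (0.84, SE 0.17), the beta chains of integrins that activate latent TGF-beta. Of 27 epithelial-mesenchymal transition genes, 3 were higher and 1 lower (14.8%, against 2.31% of all genes). The higher genes were TAGLN (1.39), ITGB6 and SPARC. The lower gene was LOX (-0.67), which crosslinks collagen and lost its call in 5 of 17 settings. The list's median was 0.01, and CDH1 (0.06) and VIM (0.07) were not called. CD44, the hyaluronan receptor, had a log2 fold change of 1.86 but an SE of 0.60. Its levels were 1.89, 12.4 and 1.36 CPM against 0.125, 0.399 and 0.219 CPM, so that siLATS1 replicate 2 carried most of the group mean although all siLATS1 values were above all siLATS2 values. LGALS14 (1.43, SE 0.39) and PLCXD3 (1.41, SE 0.22) were also among the 15 largest increases. PLCXD3 (GRCh37 chr5:41307054-41510703) lies near C6 (chr5:41142218-41261540). The 10 rows of the PCDHA protocadherin cluster that were called, at 0.58 to 0.64, share their last exons and can count the same reads.

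GABRA4 and CADPS, genes known from neurons and endocrine cells, were among the 10 lowest p-values. GABRA4, a GABA-A receptor subunit, had 2.8, 2.24 and 1.94 CPM in siLATS1 and 0.312, 0.290 and 0.329 CPM in siLATS2 (log2 fold change 1.33, SE 0.14; limma, adjusted p = 0.0833). CADPS, which primes dense-core vesicles, had 5.84, 5.12 and 5.97 CPM against 1.99, 2.21 and 2.30 CPM (1.07, SE 0.13). In both the values within a group were close and the groups did not overlap, but the levels were low in every sample.

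A ligand and a receptor of the TNF superfamily and a few interferon-stimulated genes were called higher. TNFSF10, encoding the death ligand TRAIL, was at 10.8, 5.01 and 7.99 CPM in siLATS1, 2.09, 1.49 and 1.57 CPM in siLATS2, and 2.86, 1.18 and 0.794 CPM in siControl (1.67, SE 0.25; limma, adjusted p = 0.171). All siLATS1 values were above the rest. TNFRSF9, a receptor of the same superfamily known as 4-1BB, was called at 1.53 (SE 0.27). Of 21 interferon-stimulated genes tested, 3 were higher and 0 lower (14.3% called, against 2.31% of all genes), with a median of 0.26. The called genes were GBP1 (0.95), a guanylate-binding protein, IFIH1 (0.68), the RNA sensor MDA5, and IFIT1 (0.59). IFIT1 was below 1 CPM in all siLATS2 samples (0.467, 0.617 and 0.731 CPM), so it entered the count only through its siLATS1 values. IFIH1 lost its call in 2 of 17 settings, and IFIT1 in 1 of the 14 that tested it. ISG15 (-0.07) and MX2 (-0.16) were not called. Of 14 BCL2 family genes, 1 was called (7.1%, against 2.31% of all genes). It was BCL2L11 (0.77, SE 0.20), encoding the pro-apoptotic protein BIM, at 51.3, 34.3 and 55.1 CPM against 25.3, 29.1 and 25.3 CPM. The BCL2 family list as a whole had a median of -0.13, with a negative log2 fold change in 11 of the 14 genes.

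Of 19 YAP/TAZ target genes tested, 0 were called higher and 1 lower (5.26%, against 2.31% of all genes). Their median was -0.10, and between -0.18 without siLATS1 replicate 1 and -0.01 without siLATS1 replicate 3. The called gene was CCN1, encoding a matricellular protein. It was at 177, 198 and 137 CPM in siLATS1, 310, 297 and 345 CPM in siLATS2, and 277, 305 and 323 CPM in siControl. All siLATS1 values were below all others, the siLATS2 mean was 1.86-fold higher, and the log2 fold change was -0.90 ± 0.16 (SE; limma, adjusted p = 0.217). CCN2 was at 397, 429 and 304 CPM against 488, 497 and 454 CPM, and ANKRD1 at 334, 306 and 193 CPM against 400, 394 and 337 CPM. In both genes the siLATS1 values were all below the siLATS2 values, but the log2 fold changes of -0.36 and -0.48 did not reach the threshold. PTPN14 (0.47) was in the opposite direction, also without overlap (59.7, 65.59 and 60.34 CPM against 45.45, 42.02 and 45.9 CPM), and also not called. Groups did not overlap in 2 of the 19 targets higher and 4 lower in siLATS1, where the shares over all genes tested were 6.63% and 5.85%. Of 8 YAP, TAZ, TEAD and VGLL factors none was called: YAP1 had a log2 fold change of 0.17 with overlapping groups, and WWTR1, encoding TAZ, 0.51 without overlap (44.1, 37.2 and 36.4 CPM against 27.8, 29.9 and 24.2 CPM). Among 18 Hippo kinases and adaptors tested, LATS1 was the single called gene.

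Autophagy genes were looked at because the study follows autophagy, and none of 46 tested was called (0%, against 2.31% of all genes). Their median log2 fold change was -0.03 (0.03 with no scaling beyond the library total), with a range of -0.38 to 0.29. BECN1, the Beclin-1 subunit of the class III PI3K complex, was at 75.9, 74.8 and 69.4 CPM in siLATS1 and 73.2, 77.3 and 73.7 CPM in siLATS2 (log2 fold change -0.03, SE 0.11), a difference whose sign changed with the scaling. ATG5, needed for LC3 lipidation, was at 77.9, 68.6 and 49.0 CPM against 58, 82.7 and 52.3 CPM (0.02, SE 0.23). In both genes the groups overlapped. SQSTM1, the receptor p62, was at 289, 373 and 424 CPM against 479, 399 and 532 CPM (-0.38, SE 0.18) and was not called. Its groups overlapped in 1 pair of values, siLATS1 replicate 3 above siLATS2 replicate 2. None of 42 lysosomal genes (median -0.06) and none of 18 V-ATPase subunits (median -0.15) was called. With 2.31% of all genes called, lists of these sizes without a call do not stand out. Negative values were held by 30 autophagy, 25 lysosomal and 17 V-ATPase genes, where 46.3% of all genes tested had a positive value.

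**Figure D4:**
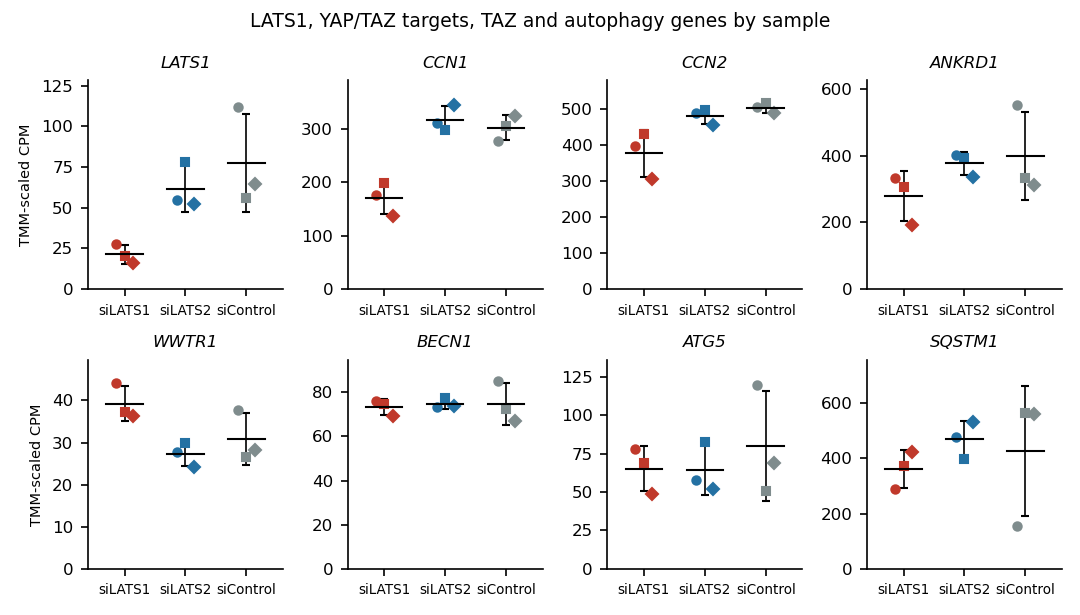
Each panel shows 1 gene, with the level in every sample on the vertical axis (TMM-scaled CPM, starting at 0); circles, squares and diamonds are replicates 1, 2 and 3, and the bar and whiskers are the mean and SD of 3 samples. LATS1 and CCN1 are lowest in all siLATS1 samples, whereas BECN1 and ATG5 overlap between the siLATS1 and siLATS2 samples.

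Of the 78 genes lower after siLATS1, those with the largest differences and THBS1, chosen after its values were seen, are given next. THBS1, encoding the matricellular protein thrombospondin-1, was at 546, 732 and 489 CPM against 929, 1031 and 1087 CPM (-0.80, SE 0.17). APOA2, an apolipoprotein of high-density lipoprotein, was the single called gene of 10 apolipoproteins tested (10%, against 2.31% of all genes). It was at 53.8, 44.5 and 57.7 CPM against 121, 106 and 117 CPM, 2.21-fold higher in siLATS2 (-1.14, SE 0.14; limma, adjusted p = 0.0943), and at 52.2, 96.1 and 75.2 CPM in siControl. Here the siControl values fell between the groups or at the siLATS1 end. S100P, a calcium-binding protein often raised in carcinoma, was at 72.3, 80.9 and 85.2 CPM against 172, 140 and 156 CPM (-0.96, SE 0.13; limma, adjusted p = 0.0943).

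Other genes among the 15 largest differences on the lower side were AKAP12 (-0.96), a scaffold of protein kinase A, NTS (-0.94), encoding neurotensin, the imprinted RNA H19 (-0.94), LAYN (-0.93), a hyaluronan receptor, DEFB1 (-0.91), a beta-defensin, KRT23 (-0.90), CRYBG2 (-0.88) and PFKM (-0.88), the muscle form of phosphofructokinase. The siControl median was nearer to siLATS1 for AKAP12, NTS and PFKM, at 10.7, 239 and 6.95 CPM. Their means were 8.46, 193 and 5.95 CPM in siLATS1 and 17.3, 358 and 11.8 CPM in siLATS2. For H19, LAYN, DEFB1, KRT23 and CRYBG2 it was nearer to siLATS2. KRT23 was the single call among 12 biliary and progenitor markers (8.3%, against 2.31% of all genes). PFKM and LOX were the 2 lower calls of 35 hypoxia and glycolysis genes, whose 1 higher call was NDRG1 (0.85), so that 8.6% were called, against 2.31% of all genes. SPRY4 (-0.73), ETV4 (-0.78) and ETV5 (-0.63), known as genes induced by ERK signalling, were called lower and are named after their values were seen; SPRY4 was at 29.1, 36.0 and 29.2 CPM against 46.8, 51.3 and 60.8 CPM.

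Sterol and stress-response genes leaned to lower values in siLATS1 with few calls. Of 37 SREBP-driven genes of cholesterol and fatty acid synthesis, 32 had a negative log2 fold change, with a median of -0.33. In this list 2 were called, both lower (5.4%, against 2.31% of all genes). One of these was INSIG1 (-0.75), which retains SREBP in the endoplasmic reticulum. INSIG1 was at 98.0, 69.9 and 71.6 CPM against 127, 169 and 111 CPM, without overlap. HMGCS1 (-0.45) and SCD (-0.45) were not called. Without siLATS1 replicate 3 the lower calls of the list were 10, and between 1 and 5 in the other settings. Of 36 ER stress and ATF4 genes, 2 were called, both lower (5.6%, against 2.31% of all genes). TRIB3 (-0.83), a pseudokinase induced by ATF4, was at 78.2, 94.5 and 112 CPM against 168, 157 and 180 CPM. The other was the amino acid transporter SLC7A5 (-0.58), which lost its call in 8 of 17 settings. Of 78 ribosomal protein genes tested, 77 had a negative log2 fold change with a median of -0.20, but 0 were called, where 46.3% of all genes tested had a positive value. Without siLATS1 replicate 1 the negative count was 67 and the median -0.09, without siLATS1 replicate 3 there were 71 and 2 were called lower, and with no scaling beyond the library total there were 73.

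None of 46 G2/M genes (median -0.03) and none of 54 G1/S and replication genes (median -0.08) was called, nor any of 11 Wnt target genes (-0.03), 11 MHC class I genes (-0.08), 11 core histones (0.12) and 15 gluconeogenesis and urea cycle genes (-0.16). Of 23 p53 targets, 1 was lower, PLK3 (-0.61), and of 12 tubulins, TUBA4A (-0.66), which is 4.3% and 8.3% against 2.31% of all genes. They lost their calls in 4 and 3 of 17 settings, the fit of all 9 samples among them. A p above the threshold does not show that these genes were equal.

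**Figure D5:**
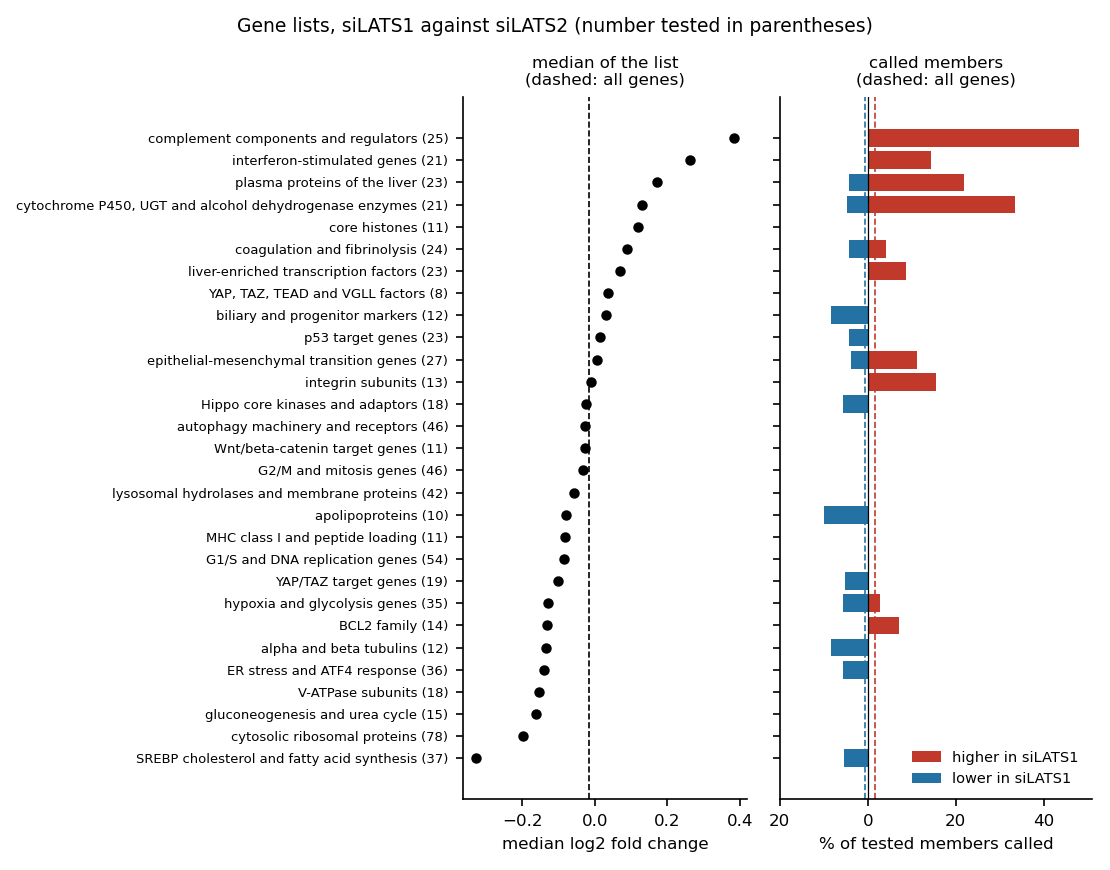
For 29 gene lists (number of members tested in parentheses), the left panel gives the median log2 fold change, siLATS1 minus siLATS2, and the right panel the percentage of tested members called higher (red, to the right) or lower (blue, to the left); dashed lines give the same values over all genes. In this fit complement genes have a median of 0.38 (0.20 without siLATS1 replicate 2) with 48% called, and SREBP genes a median of -0.33.

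The promoters of the called genes were searched for short motifs, of which the TEAD core and the TATA box are given here. RefSeq promoters (GRCh38.p14, from 250 bases before to 50 after the start site) were found for 10207 genes tested, 170 of those higher and 59 of those lower. A match on either strand to GGAATG, the core of the TEAD site, was held by 17 of the 59 lower genes (28.8%), 27 of the 170 higher genes (15.9%) and 15% of all, and among the lower holders were AKAP12, NTS and THBS1. TATAAA was held by 22.0% of lower, 15.9% of higher and 8.53% of all genes. No test was made over the motifs, and a match is not a binding site. In AKAP12 and NTS the siControl median was nearer to siLATS1 than to siLATS2. For 2 lower genes that hold the TEAD letters the promoter is shown 5′ to 3′ on the gene's strand, with those letters in capitals.
NTS (GRCh38.p14 chr12:85874045-85874344, plus strand): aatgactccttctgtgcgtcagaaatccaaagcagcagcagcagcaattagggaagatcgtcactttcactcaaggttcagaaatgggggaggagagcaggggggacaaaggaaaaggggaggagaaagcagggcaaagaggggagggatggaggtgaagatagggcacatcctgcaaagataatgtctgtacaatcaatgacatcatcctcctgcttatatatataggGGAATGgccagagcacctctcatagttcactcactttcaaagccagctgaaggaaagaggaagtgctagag
AKAP12 (GRCh38.p14 chr6:151325281-151325580, plus strand): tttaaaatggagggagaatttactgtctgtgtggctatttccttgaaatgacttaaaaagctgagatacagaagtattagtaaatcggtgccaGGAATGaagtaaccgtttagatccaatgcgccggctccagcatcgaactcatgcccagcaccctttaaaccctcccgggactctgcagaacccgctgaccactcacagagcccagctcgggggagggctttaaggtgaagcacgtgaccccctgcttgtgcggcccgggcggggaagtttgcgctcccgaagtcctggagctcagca
The matches begin at positions -21 and -157 from the start site, in the order shown.

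Sites that could pair with the siRNA seeds were counted in the 3′ UTRs of the principal transcripts, since a seed can lower transcripts other than its target. For siLATS1 the letters searched were those in capitals in the 4 sequences above, read as DNA. For the siLATS2 pool they were ACGCCTT for its siRNA 1, GCCCAAT for siRNA 2, CCTTGTT for siRNA 3 and GCAAATG for siRNA 4. At least 1 siLATS1 seed site was present in 36 of 72 lower genes other than LATS1 (50%), in 44.3% of the higher genes and in 37.6% of 11610 tested genes. The density was 0.381 sites per kb in the lower genes, 0.320 in the higher genes and 0.333 over all. The median UTR lengths were 1334, 1918 and 1376 bases in the same order, so the UTRs of the higher genes were longer. CCN1, NTS and THBS1 held such sites, and TRPC4 held the most, 6. A siLATS2 seed site was present in 74 of 210 higher genes (35.2%), 26 of 73 lower genes (35.6%) and 30.3% of all, at 0.242, 0.250 and 0.220 sites per kb. GABRA4, CDH6 and HABP2 were among the higher holders. The part of seed pairing in the results was not tested.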

How the data were processed

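Stranded libraries from total RNA of Huh7 were sequenced single-end. The labels name a ribosomal RNA depletion, whereas the methods speak of poly-A RNA, so which RNA was selected is not settled here. Per the study's methods and the labels, the authors mapped reads uniquely with STAR to hg19/GRCh37 and counted them per RefSeq gene with QuasR 1.12.0. The deposited values are CPM, reads scaled to the total assigned to genes, listed under Entrez gene numbers (20575 per sample, 20474 of them named here from a RefSeq table). Every value was a whole multiple of the sample's smallest non-zero value within 0.01 of a read, so reads and depth were recovered. Groups were taken from the siRNA in the labels. Replicates are called biological triplicates in the methods, and p-values measure the spread between them.

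CPM were scaled by TMM factors (edgeR 4.0.16), a gene was kept if 3 of the 6 samples held 1 CPM or more, and limma 3.58.1 (R 4.3.3) with a mean-variance trend was fitted to log2(CPM + 1) of the 6 samples. A fold change on this scale understates the change of low genes. All levels given are TMM-scaled CPM. P-values were Benjamini-Hochberg adjusted over all genes tested, and the script was tested on simulated data. Permutation tests used scipy 1.17.1. Alternatives were edgeR's quasi-likelihood test, DESeq2 1.42.0 and limma-voom on the recovered reads, other scaling, filters and pseudocount, the replicate number as a block, all 9 samples, and leaving out each sample. 1 row of each file names no gene and was left out. Gene symbols at GRCh37 coordinates and transcripts come from GENCODE, promoters from RefSeq, and siRNA sequences from the study's supplementary material.

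Genes named in the text were LATS1, BECN1, ATG5 and SQSTM1, the 15 largest called differences without overlap in each direction, the 10 lowest p-values, and up to 4 called members per list by size. Further members of lists and genes outside the lists were named after their values were seen. The comparison, the gene lists and the motifs were chosen with earlier results of these data known, so no list was tested as such. The lists cover the Hippo, YAP/TAZ, autophagy, lysosome, V-ATPase, tubulin, MHC class I, complement, coagulation, plasma protein, apolipoprotein, liver factor, drug metabolism, biliary, interferon, cell cycle, SREBP, p53, ER stress, mesenchymal, integrin, Wnt, BCL2, hypoxia, gluconeogenesis, ribosomal and histone genes and the markers of 4 cell types. The level of LATS2 was not analysed. Results for some other genes, which stay in the counts, and for some motifs are not reported here.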

Additional observations from a re-analysis of the deposited data

How the results depend on the processing

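The number of called genes lay between 251 and 413 in the 11 settings that kept all 6 samples and between 249 and 357 when 1 sample was left out, against 295, and LATS1 was called lower in all of them (-1.70 to -1.32 without 1 sample). Past the adjusted threshold, limma found 0 genes, against 4 with the replicate block, 2 with a pseudocount of 0.1 CPM, 2 with limma-voom on the recovered reads and 150 with DESeq2. It was 0 in every leave-one-out fit. The cause of the difference between the tools was not tested. With no scaling beyond the library total, 81.6% of the calls were higher, against 73.6%, and without siLATS1 replicate 3 50.1%. The replicate numbers did not pair the samples: the deviations from the group means correlated across genes at -0.44, 0.38 and 0.87 for numbers 1, 2 and 3, and the block gave 331 called genes, which held all 217 and 78 of the fit without it. Of 64 named genes, 62 kept their direction in the 17 settings. Most of them were picked from the same samples for large differences or low p-values. That choice nearly fixes their direction, so the count does not measure stability. BECN1 became positive with no scaling (0.0283) and with upper-quartile scaling (0.0059), and ranged from -0.0513 to 0.0132 without 1 sample. ATG5 ranged from -0.12 to 0.21 without 1 sample. The call was lost in at least 1 setting for 14 named genes. Medians over lists moved by more than the spread between samples in 8 of 561 values. That spread could be as large as the median itself, 0.335 against -0.33 for the SREBP list and 0.267 against 0.13 for the drug metabolism list. The count therefore does not show that the medians were stable. A fit for LATS2 was not run. 3 samples per group limit the precision of every value.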
